A study of Homo sapiens with 5 samples.

Results

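MHC class I molecules are the surface proteins that present fragments of a cell's own proteins to cytotoxic T cells and are read by natural killer cells. Each consists of a heavy chain, encoded by an HLA gene, and the invariant light chain beta-2-microglobulin. HLA-B and HLA-C are classical heavy chains, whereas HLA-E, HLA-F and HLA-G are non-classical ones. HLA-E presents leader peptides of other class I chains to receptors of natural killer cells, and HLA-G is best known from the extravillous trophoblast of the placenta. The transporter made of TAP1 and TAP2 carries peptides into the endoplasmic reticulum, and tapasin (TAPBP) holds the empty heavy chain next to the transporter while a peptide is loaded. Human embryonic stem cells (hESC) are known for low class I on their surface, which rises with differentiation and on exposure to interferon.

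The 9 genes HLA-B, HLA-C, HLA-E, HLA-F, HLA-G, B2M, TAP1, TAP2 and TAPBP were studied here out of 11963 genes that the arrays measured by a probe set naming them alone. They were chosen as the genes of class I and its peptide loading named by the platform annotation, and all their probe sets were kept. They lie on 25 probe sets that name a single gene, and 0 probe sets name a member together with another gene. Of the 25, 15 end in _x_at, the manufacturer's mark for probes that can bind transcripts of other genes, and 4 end in _s_at, the mark for probes shared by several transcripts. All but a pair of the 17 heavy chain probe sets are of the first kind, so the values of HLA-B, HLA-C, HLA-F and HLA-G cannot be fully separated from each other or from other class I genes.

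The samples were HES2 cells, an established hESC line, transduced with a lentivirus for wt miR-122 (2 arrays) or for mutant miR-122, in which the seed sequence was changed (3 arrays). Both vectors drove the miRNA from the H1 promoter and a red fluorescent reporter from the EF1α promoter, so the control cells were transduced too and carried the same backbone. Cells of both groups were grown on human foreskin feeders, moved to fibronectin and left to differentiate spontaneously without bFGF for 2 weeks. RNA was profiled on Affymetrix expression arrays, and the arrays of a group came from independent experiments according to the methods. Both groups hold a mixture of cell types, and in such bulk RNA fewer cells of a type and less RNA per cell cannot be told apart. The comparison addresses whether miR-122 alters gene expression during differentiation.

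miR-122 is a miRNA of the liver. Its mature sequence is shown because the seed (bases 2 to 8, in capitals) is what the mutant vector changed, so this is the only designed difference between the groups. The sequence and its position, chr18:58451088-58451109 on the plus strand, are from RefSeq (GRCh38.p14).
hsa-miR-122-5p: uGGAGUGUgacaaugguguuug

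Class I genes are known to respond to interferon and NF-kappa B through short elements ahead of the start site, and promoter windows from 250 bases before to 50 bases after the start were available for 8 of the 9 members (11 windows in RefSeq, GRCh38.p14). HLA-E had none. Letters of an interferon-response element (GAAANNGAA on either strand) occurred in windows of 5 members, B2M, HLA-F, TAP1, TAP2 and TAPBP, and in 8.11% of all 35116 windows. In B2M, TAP1 and TAPBP 2 overlapping copies followed each other. The stretches below are shown because they hold the element shared by the light chain and all 3 peptide loading genes. Matches are in capitals, and positions count back from the start site.
B2M (chr15:44711360-44711399, plus strand, bases -157 to -118): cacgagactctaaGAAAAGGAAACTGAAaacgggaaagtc
TAP1 (chr6:32853811-32853850, minus strand, bases -146 to -107): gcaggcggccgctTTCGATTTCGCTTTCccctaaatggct
TAP2 (chr6:32838774-32838813, minus strand, bases -74 to -35): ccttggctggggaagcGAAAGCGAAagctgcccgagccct
TAPBP (chr6:33314079-33314118, minus strand, bases -40 to -1): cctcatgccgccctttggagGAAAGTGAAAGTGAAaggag
HLA-F (chr6:29723263-29723302, plus strand, bases -171 to -132): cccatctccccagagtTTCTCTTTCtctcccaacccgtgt

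The heavy chain promoters are shown side by side because they hold the same element at nearly the same place. HLA-B, HLA-C, HLA-F and HLA-G each held a CCAAT box (CCAAT on either strand, in 34.6% of all windows) whose first base lay at -56 or -57.
HLA-B (chr6:31357220-31357269, minus strand, bases -90 to -41): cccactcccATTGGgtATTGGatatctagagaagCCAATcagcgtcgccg
HLA-C (chr6:31272133-31272182, minus strand, bases -90 to -41): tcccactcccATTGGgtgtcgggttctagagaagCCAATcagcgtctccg
HLA-F (chr6:29723344-29723393, plus strand, bases -90 to -41): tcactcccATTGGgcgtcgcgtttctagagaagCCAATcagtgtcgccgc
HLA-G (chr6:29827735-29827784, plus strand, bases -90 to -41): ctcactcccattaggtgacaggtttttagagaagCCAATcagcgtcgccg

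A kappa B site (GGGGATTCC on either strand, in 0.285% of all windows) was matched in HLA-B alone among the members, with its first base at -177. A gamma-activated site (TTCNNNGAA, which reads the same on both strands, in 7.66%) was matched in the more downstream window of TAP1, and a cAMP response element (TGACGT on either strand, in 7.98%) in no member. These matches describe the letters of the windows and say nothing about binding in these cells.

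The values used here are log2 values after RMA, which corrects the background and brings the arrays to a common distribution. Differences are given as wt minus mutant on this scale, with the standard error (SE) and the adjusted p of limma, a linear model that shares the estimate of spread across probe sets. The adjustment covers all 22215 probe sets tested, and exact permutation of 3 against 2 arrays has a smallest two-sided p of 0.1. Of all probe sets, 0.383% passed at an adjusted p under 0.05, 14.4% had an unadjusted p under 0.05, and in 32.7% the groups did not overlap.

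None of the 25 probe sets of the class I and peptide loading genes passed by limma (0 higher and 0 lower, against 0.383% of all probe sets). At an unadjusted p under 0.05, 1 was higher and 1 lower in wt miR-122-expressing cells (14.4% of all probe sets passed this way). By the Student t-test of the methods 1 of the 25 had an unadjusted p under 0.05, as did 2424 of all 22215 probe sets. The means were higher on 14 probe sets and lower on 11. The groups did not overlap on 3 of 25 (12%, against 32.7% of all). Over the 25 the median difference was 0.02 and over all probe sets 0.03, with a range of -0.27 to 0.20 among the members.

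**Figure D1:**
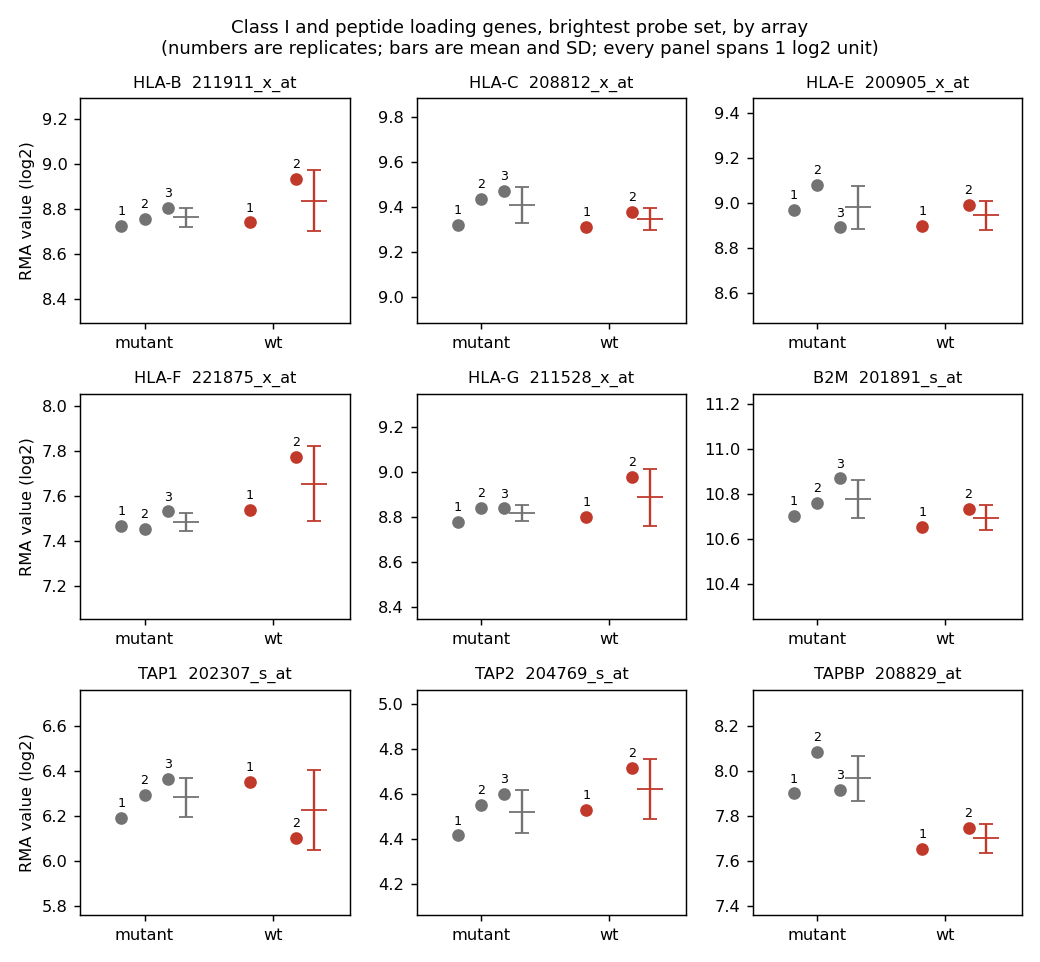
RMA values (log2, vertical axis) of the brightest probe set of each of the 9 genes on the 3 mutant (grey) and 2 wt (red) arrays. Points are single arrays numbered by replicate, and bars are the mean and SD. The groups overlap in 7 of the 9 genes and do not in 2 (22.2%, against 34.9% of all genes at their brightest probe set). In TAPBP both wt arrays (7.65 and 7.74) lie below all mutant arrays (7.90 to 8.08).

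Among the classical heavy chains, HLA-B lay at 8.73, 8.76 and 8.81 on the mutant arrays and at 8.74 and 8.93 on the wt arrays (probe set 211911_x_at). The second wt array was highest, and the first lay among the mutant arrays. The log2 difference was 0.07 (SE 0.085, adjusted p = 0.742 from limma). The other HLA-B probe sets gave 0.02 and 0.03.

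HLA-C lay at 9.32, 9.44 and 9.47 on the mutant arrays and at 9.31 and 9.38 on the wt arrays (208812_x_at). Here the first wt array was lowest and the second fell inside the mutant range. The log2 difference was -0.06 (SE 0.081, adjusted p = 0.764). Its 3 other probe sets gave -0.06, 0.01 and 0.08, so the probe sets of HLA-C did not share a direction.

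HLA-E, the non-classical chain read by the NKG2 receptors, differed by -0.04 to -0.01 on its 3 probe sets. Its values were 8.97, 9.08 and 8.89 on the mutant arrays and 8.90 and 8.99 on the wt arrays (200905_x_at), with both wt arrays inside the mutant range. The log2 difference was -0.04 (SE 0.085, adjusted p = 0.887). Its probe set without a mark for cross-matching, 200904_at, gave -0.01 (SE 0.09), with a 95% confidence interval from -0.22 to 0.20.

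HLA-F, which is largely intracellular in resting cells, had the largest difference among the heavy chains. It lay at 7.47, 7.45 and 7.53 on the mutant arrays and at 7.54 and 7.77 on the wt arrays (221875_x_at). Both wt arrays were above the mutant arrays, but the first only just, at 7.54 against 7.53. The log2 difference was 0.17 (SE 0.09, adjusted p = 0.439). The second wt array set this value, since the difference was 0.05 without wt replicate 2 and 0.29 without wt replicate 1. On 204806_x_at the wt arrays were at 7.44 and 7.71 and overlapped the mutant arrays, and the dim 221978_at gave -0.04.

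HLA-G lay at 8.78, 8.84 and 8.84 on the mutant arrays and at 8.80 and 8.98 on the wt arrays (211528_x_at). The groups overlapped, and the second wt array was again the highest. The log2 difference was 0.07 (SE 0.083, adjusted p = 0.753). The other HLA-G probe sets gave 0.11, 0.12 and -0.02, and all 4 carry the mark for cross-matching, so a level of HLA-G alone cannot be read from them.

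B2M, the light chain of every class I molecule, was measured by 2 probe sets. On 201891_s_at it lay at 10.70, 10.76 and 10.87 on the mutant arrays and at 10.65 and 10.74 on the wt arrays, a log2 difference of -0.08 (SE 0.082, adjusted p = 0.698). On 216231_s_at it lay at 10.56, 10.55 and 10.73 and at 10.49 and 10.70, a difference of -0.02 (SE 0.097). On both probe sets the first wt array was lowest and mutant replicate 3 highest, and the groups overlapped. The 95% interval on 201891_s_at ran from 0.828- to 1.08-fold of the mutant level.

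The peptide transporter showed no common direction. TAP1 lay at 6.19, 6.29 and 6.36 on the mutant arrays and at 6.35 and 6.10 on the wt arrays, which enclosed 2 of the mutant values. Its log2 difference was -0.06 (SE 0.099, adjusted p = 0.838), and it was 0.07 without wt replicate 2 and -0.18 without wt replicate 1.

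TAP2, the partner of TAP1, was brightest on 204769_s_at, with 4.42, 4.55 and 4.60 on the mutant and 4.53 and 4.72 on the wt arrays (log2 difference 0.10, SE 0.093, adjusted p = 0.667). This difference was 0.0079 without wt replicate 2 and 0.20 without wt replicate 1. On 204770_at it lay at 4.09, 3.95 and 3.95 and at 4.25 and 4.13. Both wt arrays were above the mutant arrays on this probe set, by a log2 difference of 0.20 (SE 0.084, adjusted p = 0.335). 204770_at and 208428_at, with a difference of 0.04, were among the dimmest 20% of probe sets on the array.

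TAPBP, the tapasin gene, had the largest difference of the members. It lay at 7.90, 8.08 and 7.91 on the mutant arrays and at 7.65 and 7.74 on the wt arrays (208829_at). Both wt arrays were lower than every mutant array, and the gap between the groups was wider than that between the wt arrays. The log2 difference was -0.27 (SE 0.087, adjusted p = 0.229 from limma), or 0.832-fold, with a 95% interval from 0.723- to 0.956-fold. It did not pass over all probe sets, and 89.9% of genes had a smaller absolute difference. When each of the 5 arrays was left out in turn, the difference ranged from -0.31 to -0.21. A second TAPBP probe set, 210294_at, was dim, at 3.71, 3.90 and 3.70 and at 3.71 and 3.97, and gave 0.07 (SE 0.106).

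The genes nearest to TAPBP in pattern were found by the root mean square difference between values centred on their own mean over the 5 arrays, among 11954 other genes. TAPBP was taken because it varied most of the members across the arrays (SD 0.166). The nearest were FAM111A (0.0132), ZHX2 (0.0208), MAGEL2 (0.0214), CALCOCO1 (0.0285) and CIZ1 (0.0305). In each of them mutant replicate 2 was highest, as in TAPBP, and the wt arrays lay below all mutant arrays. Their log2 differences ran from -0.27 to -0.22. None of them passed, with adjusted p-values from 0.192 to 0.331. With 5 arrays such likeness is a description of shape, and close neighbours are easily found.

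**Figure D2:**
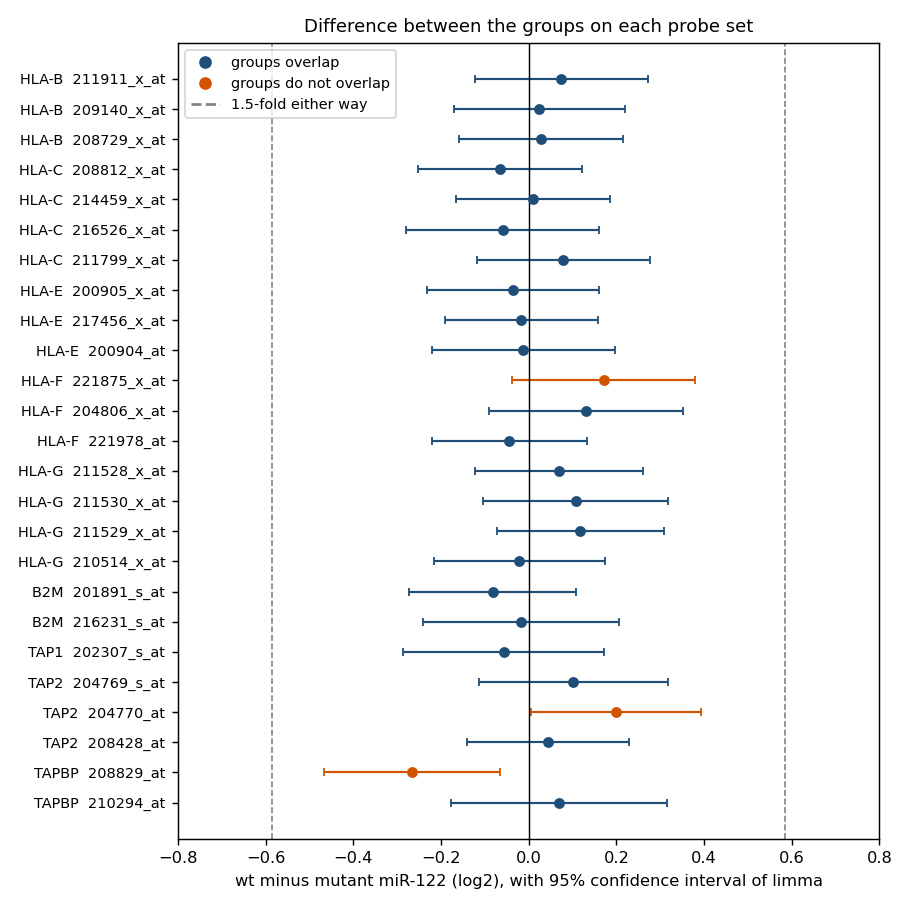
Difference between wt and mutant miR-122 (log2, horizontal axis) on each of the 25 probe sets, with the 95% confidence interval of limma. Points in orange mark the 3 probe sets whose groups do not overlap, on HLA-F, TAP2 and TAPBP. All 25 intervals lie within 1.5-fold either way (dashed lines).

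Each interval gives the size of change that these arrays leave possible for that probe set alone. The 25 together are not a joint bound, and those of probe sets marked for cross-matching do not bound a single gene. All 25 intervals of the class I and peptide loading probe sets lay within 1.5-fold either way (93.8% of all probe sets did so), and 12 of 25 (48%) lay within 1.2-fold (32.9% of all). Their extremes were 1.38-fold lower, for TAPBP, and 1.31-fold higher, for TAP2 on 204770_at. For the 17 heavy chain probe sets the intervals ran from 0.824- to 1.3-fold. The median SE of a difference was 0.0851 over the members and 0.0878 over all probe sets, and the median absolute difference was 0.06 and 0.09. An interval of this width leaves room for small changes, and a p that misses the threshold does not show that the groups are alike. RMA is known to narrow differences on dim probe sets.

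The spread between the wt arrays was wider than the difference between the groups for most members. The gap between the wt arrays exceeded the difference between the group means on 22 of 25 probe sets (88%, against 51.6% of all probe sets) and on all 17 of the heavy chains. The second wt array was above the first on 22 of 25 (88%, against 44.8% of all), with a median gap of 0.13 (-0.02 over all probe sets). It held the highest of the 5 values on 14 of 25 (56%, against 23.7% of all). TAP1, TAP2 on 204770_at and HLA-F on 221978_at ran the other way. On the 15 probe sets marked for cross-matching the gap was positive 15 times, and these share probes, so they are not 15 separate observations.

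By array, the median of the 25 members stood at -0.04, -0.02 and 0.04 from the mutant mean on mutant replicates 1 to 3, at -0.04 on wt replicate 1 and at 0.10 on wt replicate 2. The first wt array thus lay at the lower edge of the mutant arrays and the second above them. Over all probe sets the same medians lay between -0.003 and 0.03.

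**Figure D3:**
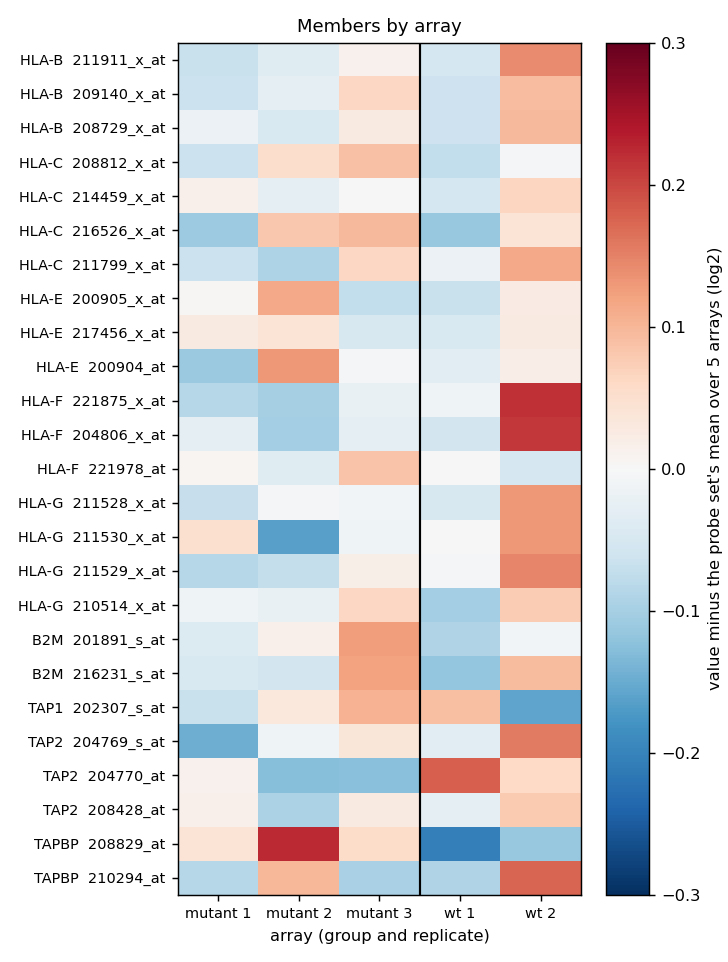
Value of each of the 25 probe sets on each of the 5 arrays, as the difference from the mean of that probe set over the arrays (log2, colour scale). The column of wt replicate 2 is above the mean on most heavy chain probe sets, and TAPBP on 208829_at is the row in which both wt arrays are lowest.

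Genes that work with class I were described from 7 lists with 94 genes, of which 85 had a probe set that names only them. None passed by limma at an adjusted p under 0.05 (0 higher and 0 lower), 8 were higher and 9 lower at an unadjusted p under 0.05 (20% of the 85, against 15.7% of all genes at their brightest probe set), and the groups did not overlap in 33 (38.8%, against 34.9% of all genes). Their median difference was 0.03. They cover the supply of peptides, the folding of the chains, the relatives of class I, and its regulation.

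Peptide supply was measured by 11 of 13 listed genes, with 0 passing and a median difference of -0.01. PSMB8, a catalytic subunit of the immunoproteasome encoded between TAP2 and TAP1, lay at 4.70, 4.78 and 4.89 on the mutant and at 4.89 and 5.28 on the wt arrays (log2 difference 0.30, SE 0.123, adjusted p = 0.326). The second wt array again stood above the rest, and the difference was 0.098 without wt replicate 2 and 0.49 without wt replicate 1. PSMB9, its neighbour on the other side of TAP1, gave 0.18 (adjusted p = 0.453), and the third immunoproteasome subunit, PSMB10, gave -0.10 (adjusted p = 0.627). PSME3, a nuclear proteasome activator, gave -0.10. With each array left out in turn, PSMB10 ran from -0.16 to -0.044, lowest without wt replicate 1 and highest without wt replicate 2, and PSME3 was at -0.059 without mutant replicate 3.

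Folding and quality control of class I was measured by 8 of 9 genes, with 0 passing and a median of 0.02. The lectin chaperone CALR was at 9.89, 9.81 and 9.82 on the mutant and at 9.76 and 9.70 on the wt arrays, a log2 difference of -0.11 (adjusted p = 0.558). TAPBPL, a relative of tapasin that edits peptides outside the loading complex, gave 0.14 (adjusted p = 0.53), with groups that overlapped. SEC61A1, the channel through which heavy chains enter the endoplasmic reticulum, gave -0.14 and the chaperone HSPA5 0.09. TAPBPL was at 0.085 without mutant replicate 3, and HSPA5 at 0.033 without wt replicate 2 and 0.14 without wt replicate 1.

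Of the class I-like genes and stress ligands 10 of 12 were measured and 0 passed, with a median of 0.04. MICB, a stress-induced ligand of the NKG2D receptor, had the largest difference of all 7 lists. It lay at 7.16, 7.26 and 7.75 on the mutant and at 7.90 and 8.11 on the wt arrays, which is 0.62 higher in wt on the log2 scale (SE 0.168, adjusted p = 0.173 from limma). Both wt arrays were above all mutant arrays. MICA, the close relative of MICB, gave 0.17 with overlapping groups, and 0.019 without mutant replicate 1 but 0.34 without mutant replicate 3. PROCR, the endothelial protein C receptor with a class I-like fold, lay at 5.65, 5.66 and 5.47 and at 5.98 and 6.01 (log2 difference 0.40, SE 0.0866, adjusted p = 0.109). HFE, the class I-like regulator of iron uptake, gave -0.15, and -0.034 without wt replicate 1 but -0.27 without wt replicate 2.

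Class II genes were measured by all 12 of the list, with 0 passing and a median of 0.07. HLA-DRB1 lay at 8.74, 8.93 and 8.74 on the mutant and at 8.53 and 8.46 on the wt arrays (log2 difference -0.31, SE 0.0884, adjusted p = 0.187), on a probe set marked for cross-matching. The mean log2 level of the whole list was lower, at 5.69 to 5.79 on the mutant and 5.69 to 5.75 on the wt arrays. Of the 12 genes, 2 were among the dimmest 20% of probe sets. HLA-DPA1 gave -0.26 and CD74, the invariant chain of class II, gave -0.32. CD74 was at -0.18 without wt replicate 1 or without mutant replicate 2, and at -0.46 without wt replicate 2. HLA-DMA, which exchanges class II peptides, gave 0.18. These values had no common direction.

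Regulators of class I transcription were measured by 12 of 14 genes, with 0 passing and a median of 0.02. NFYB, a subunit of the factor that binds CCAAT boxes such as those printed for the heavy chains, lay at 7.99, 7.99 and 8.10 on the mutant and at 8.43 and 8.32 on the wt arrays (log2 difference 0.35, SE 0.0801, adjusted p = 0.121). Both wt arrays were above the mutant arrays. IRF1, an interferon-induced activator of class I genes, gave -0.18 (adjusted p = 0.372), and -0.083 without wt replicate 2 but -0.29 without wt replicate 1. NFKB1 gave -0.16 and RFXANK, a subunit of the RFX complex, gave -0.13, or -0.082 without mutant replicate 1.

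Interferon receptors and signalling were measured by 10 of 12 genes, with 0 passing and a median of -0.05. The kinase JAK1 lay at 8.38, 8.36 and 8.53 on the mutant and at 8.14 and 8.02 on the wt arrays (log2 difference -0.34, SE 0.0874, adjusted p = 0.15). IFNGR1, a chain of the interferon gamma receptor, gave -0.24 (adjusted p = 0.209) and IRF9, the DNA-binding subunit of the factor that carries the type I interferon signal, gave -0.20. PTPN2, a phosphatase that acts on JAK kinases, gave 0.27. The groups did not overlap in 5 of the 10 genes (50%, against 34.9% of all genes), among them these 4, which were named for their small p. Without wt replicate 2 the value of IRF9 was -0.13.

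Interferon-stimulated genes were all measured (22 of 22), with 0 passing, 17 higher and 5 lower means and a median of 0.07. IFI6 lay at 6.15, 6.12 and 6.36 on the mutant and at 5.71 and 5.67 on the wt arrays (log2 difference -0.52, SE 0.0926, adjusted p = 0.0691). IFITM1, a membrane protein that restricts viral entry, lay at 11.79, 11.82 and 11.91 and at 12.19 and 12.40, a difference of 0.46 (SE 0.0902, adjusted p = 0.0909). BST2, which tethers virions to the cell surface, gave 0.54 (SE 0.121, adjusted p = 0.116), and IFIT1 gave -0.25. The 4 genes with the smallest adjusted p were thus 2 with higher and 2 with lower wt values.

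**Figure D4:**
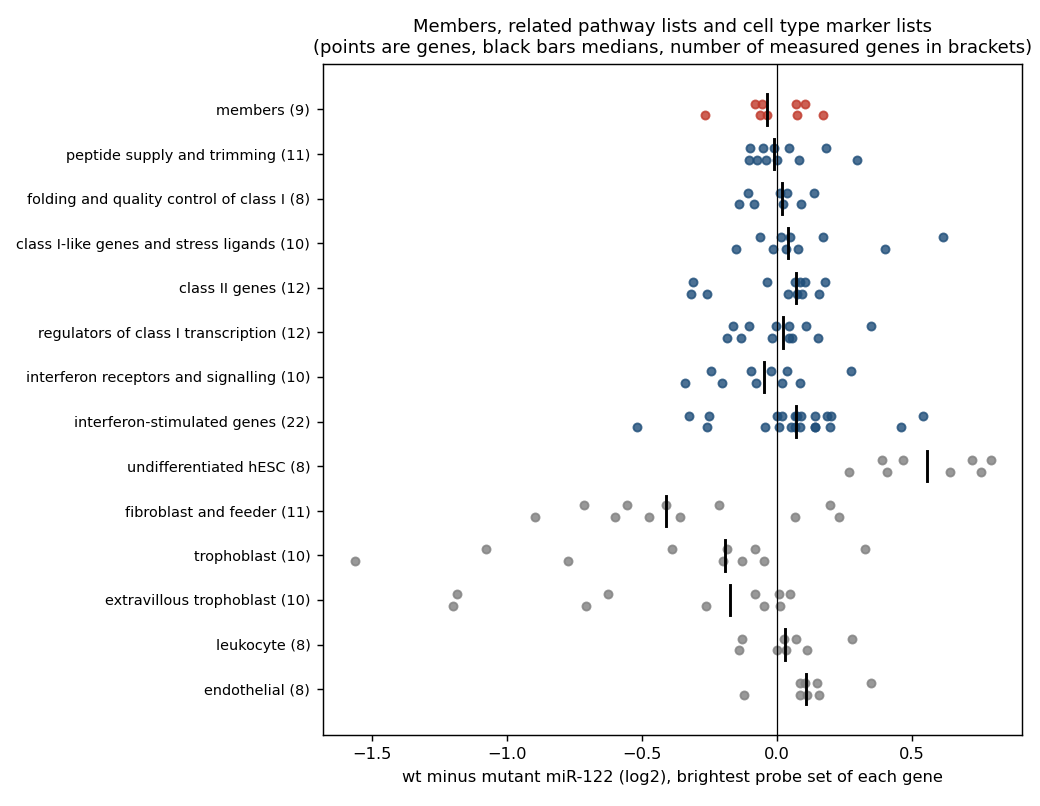
Difference between wt and mutant miR-122 (log2, horizontal axis) of each gene at its brightest probe set, for the members (red), 7 related pathway lists (blue) and 6 lists of cell type markers (grey). Points are genes and black bars are medians. The 9 members lie between -0.27 and 0.17, while the hESC markers have a median of 0.55 and the fibroblast markers one of -0.41.

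Markers of the cell types that these cultures could hold were described in the same way. All 8 measured markers of undifferentiated hESC had higher means, with a median of 0.55, and their mean log2 level was 8.91 to 9.02 on the mutant and 9.51 to 9.53 on the wt arrays. DNMT3B and UTF1 rose (adjusted p = 0.0333 and 0.0424 from limma), UTF1 on a probe set marked for cross-matching. By the methods' t-test, or with any mutant array left out, 0 of all probe sets passed, these included. The fibroblast and feeder markers, 8 of 11 with lower means, had a median of -0.41 and a mean level of 8.62 to 8.90 against 8.25 to 8.50. Of 10 trophoblast markers 9 had lower means, with a median of -0.19 and a mean level of 7.06 to 7.30 against 6.72 to 6.84, and HSD3B1 fell by 1.56 (adjusted p = 0.0424). Of the 10 markers of extravillous trophoblast, the cell type known for HLA-G, 7 had lower and 3 higher means. Of these 10, 4 were among the dimmest 20% of probe sets. Their median was -0.17 and their mean level 5.49 to 5.75 against 5.12 to 5.23. ITGA1, PLAC8, DIO2 and MMP2 gave -1.20, -1.18, -0.71 and -0.63, while the rest lay between -0.26 and 0.05. The probe sets of HLA-G, all marked for cross-matching, gave differences from -0.02 to 0.12. The part of these shifts in the values of the class I genes was not tested.

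Leukocyte markers, which would point to cells rich in class I, had a median of 0.03 and a mean level of 4.32 to 4.41 on the mutant and 4.37 to 4.39 on the wt arrays, and 5 of the 8 measured were among the dimmest 20% of probe sets. Endothelial markers had a median of 0.11 and a mean level of 4.84 to 4.89 against 4.89 to 5.07, and 4 of the 8 measured were among the dimmest 20%. From the first to the second wt array, the endothelial markers were higher by a median of 0.17 and the fibroblast and feeder markers by 0.17, beside the median of 0.13 of the class I and peptide loading probe sets. The same median was 0.12 for the interferon-stimulated genes, 0.09 for the class I-like genes and stress ligands and 0.07 for the class II genes. For peptide supply it was 0.027 and for folding and quality control -0.0069. For the regulators of class I transcription it was -0.056 and for interferon receptors and signalling -0.04. It was -0.05 for the leukocyte, -0.015 for the undifferentiated hESC, 0.0096 for the trophoblast and -0.019 for the extravillous trophoblast markers. Each is a gap between a single pair of arrays, and the part of these cell types in it was not tested.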

How the data were processed

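The authors hybridized RNA of 5 samples to Affymetrix expression arrays, normalized them with RMA and deposited log2 values of 22277 probe sets. Scanner files were not used here. Replicates were not pooled, and 0 columns stayed unused. After removal of 62 controls, limma 3.58.1 (lmFit and eBayes, R 4.3.3) was fitted to the other 22215 with a term for group, and p-values were adjusted by Benjamini-Hochberg over all of them (threshold 0.05). Prior and residual degrees of freedom were 4.87 and 3. The array medians ran from 6.32 to 6.36. An array has no depth in reads. Precision depends on how many arrays there are and on the spread of each probe set between them.

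Probe sets were named through the platform annotation, with 19052 symbols updated by Entrez ID. 19064 name 1 gene, 1043 several, and 2108 are unnamed here. A gene is represented by its brightest probe set unless others are named. The members, lists and tests were chosen with earlier results of these data known, and the lists were written from general knowledge. All probe sets of the members were described, and of each list the genes past the threshold and up to 4 with the smallest adjusted p were eligible for naming. The fit was tested on simulated data. As alternatives, the methods' t-test, a robust prior with an intensity trend, a filter on dim probe sets, omission of probe sets ending in _x_at or _s_at, a replicate block, array weights, centring, other choices of probe set, and omission of each array were run. Plots used matplotlib 3.10.9 (Python 3.11.15).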

Additional observations from a re-analysis of the deposited data

How the results depend on the processing

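None of the member probe sets passed under any alternative run (0 in each). Of these alternatives, leaving out an array or the replicate block reversed a member. With each array left out in turn, the differences ran from -0.022 to 0.17 for HLA-B on 211911_x_at, -0.053 to 0.10 on 209140_x_at and -0.051 to 0.11 on 208729_x_at, and for HLA-C from -0.049 to 0.070 on 214459_x_at and -0.14 to 0.018 on 216526_x_at. For HLA-E they ran from -0.082 to 0.014 on 200905_x_at, -0.053 to 0.020 on 217456_x_at and -0.070 to 0.051 on 200904_at, for HLA-F from -0.0024 to 0.26 on 204806_x_at, and for HLA-G from -0.020 to 0.16 on 211528_x_at and -0.11 to 0.068 on 210514_x_at. B2M on 216231_s_at ran from -0.12 to 0.087, TAP1 from -0.18 to 0.068, TAP2 on 208428_at from -0.0087 to 0.097 and TAPBP on 210294_at from -0.064 to 0.20. Without a reversal, HLA-C ran from -0.11 to -0.030 on 208812_x_at and 0.013 to 0.15 on 211799_x_at, HLA-F from 0.054 to 0.29 on 221875_x_at and -0.071 to -0.011 on 221978_at, HLA-G from 0.042 to 0.17 on 211530_x_at and 0.043 to 0.19 on 211529_x_at, and B2M on 201891_s_at from -0.12 to -0.036. The median of the 9 members ran from -0.04 to 0.01.

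The replicate block takes arrays 1 and 2 of both groups as pairs, although no source states a pairing. Mutant replicate 3 has no wt partner, so it does not enter the difference. The block therefore gave the same differences as leaving out mutant replicate 3, such as -0.29 for TAPBP on 208829_at. It also leaves fewer residual degrees of freedom than the 3 of the fit of group alone. The deviations of same-numbered arrays from their group means correlated at 0.147 and 0.123. With 2 wt arrays the wt deviations mirror each other. Each of these mutant arrays therefore gave the same value with the opposite sign against the other wt array (-0.147 and -0.123). Under the replicate block HLA-G on 210514_x_at gave 0.0058 and B2M on 216231_s_at 0.039, TAPBP on 208829_at gave -0.29 (adjusted p = 0.126), and 5 list genes passed (MICB, NFYB, IFI6, IFITM1 and BST2). With an intensity trend and robust prior 2 passed (IFI6 and IFITM1). Over all probe sets, 85 passed by the fit of group alone, 895 under the replicate block, 320 with the trend, 159 among probe sets at or above the median level, 0 by the methods' t-test (2424 at an unadjusted p under 0.05) and 0 to 3 with an array left out. With fewer arrays fewer changes can pass, and the cause of the other shifts was not tested. The unadjusted p of TAPBP on 208829_at rose above 0.05 without wt replicate 1. That of TAP2 on 204770_at did so by the methods' t-test, with the trend, the replicate block or array weights, and without mutant replicate 2, mutant replicate 3 or wt replicate 1.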
